A study of Arabidopsis thaliana with 4 samples.

Results

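Cytosolic ribosomal protein genes of Arabidopsis thaliana are described here across roots of 3 overexpression lines and wild type. The 51 loci encode proteins of both ribosomal subunits, and 141 further cytosolic ribosomal protein loci are taken up below. The list of 51 was chosen with earlier results of these data known. A locus was used, whatever its values, where the array annotation named it alone for at least 1 row (transcript cluster) of the value table. This held for 44 loci with 45 rows, 30 of the large and 14 of the small subunit, out of 16548 genes with such a row. The other 7 loci had no row of their own. They are both SA genes (AT1G72370 and AT3G04770), both L3 genes (AT1G43170 and AT1G61580), both S6 genes (AT4G31700 and AT5G10360) and the L8 gene AT2G18020, and they were not analysed here. The 44 loci belong to 15 proteins. Which protein a locus encodes is known from the loci, not from these tables, since the gene table gives symbols only to AT1G58380 (XW6) and AT2G27530 (PGY1) among the 44.

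Total RNA from roots labelled 14 d was hybridised to 4 Arabidopsis Gene 1.0 ST arrays, 1 array per genotype. The genotypes are CEPD1ox, CEPD2ox, CEPDL2ox and WT (Col). The names of the lines mark overexpression of CEPD1, CEPD2 or CEPDL2, glutaredoxin-like polypeptides known as shoot-to-root signals of nitrogen demand. All plants grew on agar at 22 °C in continuous light, were moved after 7 d to a medium replete in nitrogen (NH4Cl and KNO3 at 10 mM each), and had no other treatment. The labels do not give the promoter of the transgenes, the number of independent lines or the number of plants per extract.

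There were no replicates, so there is no spread within a genotype, no test and no p-value, and no difference below was checked by replication. The 3 comparisons with WT share the single WT array. Signals are on a log2 scale as deposited, and a ratio is the log2 signal of a line minus that of WT. The 4 arrays correlated with each other at r of 0.983 to 0.984 over all rows. CEPD2 had a log2 signal of 9.22 in CEPD2ox, against 1.41 in WT, and CEPDL2 had one of 5.49 in CEPDL2ox, against 3.46 in WT. CEPD1 had a signal of 3.04 on the array labelled CEPD1ox, against 2.66 in WT, close to the filter value of 2.78 used below. That array therefore does not show overexpression of CEPD1, a limit on every difference drawn from it, and CEPD1ox below means the array so labelled. Of 8 root markers 2 had a row, the root hair expansin genes EXPA18 and EXPA7. EXPA18 had 8.36, 8.14 and 8.63 in CEPD1ox, CEPD2ox and CEPDL2ox, against 8.24 in WT. EXPA7 had 6.72, 6.58 and 6.83 in the same lines, against 6.60 in WT. Both were highest in CEPDL2ox, by 0.39 and 0.23 on the log2 scale over WT. Of 7 leaf markers 2 had a row. RCA, the Rubisco activase gene, had 5.73, 6.14 and 5.66 in CEPD1ox, CEPD2ox and CEPDL2ox, against 6.31 in WT. PRK, the phosphoribulokinase gene, had 3.27, 2.94 and 2.47 in the same lines, against 4.58 in WT. Both leaf markers were thus lower in the lines, but PRK was near the filter value of 2.78 in CEPD2ox and below it in CEPDL2ox. The RCA ratio of -0.17 in CEPD2ox was near 0.15, the median size of a ratio over all genes kept there. The part of root and leaf markers in the ratios below was not tested. In such bulk samples fewer cells of a type and less RNA per cell cannot be told apart.

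A cytosolic ribosome joins a small subunit, which decodes the mRNA, to a large subunit, which forms the peptide bond. Each ribosomal protein of Arabidopsis is encoded by a small family of paralogous genes, and the products of such paralogs can take the same place in the ribosome. Ribosomal protein transcripts are abundant in dividing cells, such as those of the root tip, and their synthesis is known to follow growth and nutrient status through the TOR kinase pathway.

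Most of the ribosomal protein rows gave strong signals. The mean signal over the 4 arrays had a median of 8.11 over the 44 loci, with quartiles of 6.85 and 9.38, beside a median of 4.99 over all 16548 genes. It was 7 or above for 32 of the 44 (72.7%), beside 23.8% of all genes, and 9 or above for 14 (31.8%), beside 5.24%. The median was 7.94 for the large and 8.68 for the small subunit. A row signal depends on its own probes as well as on the RNA, so these values place rows on the scale of the array and do not rank RNA levels between genes. Signals below 5 were found for 6 loci. Of these AT5G40040, a P2 gene, had 2.36, 2.13 and 2.32 in CEPD1ox, CEPD2ox and CEPDL2ox, against 2.27 in WT. It stayed under the filter value on every array and was the only one of the 44 to fail the filter, so 43 loci enter the counts below. The filter required the highest of the 4 signals to reach the 25th percentile of all gene values and kept 13232 genes.

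No ribosomal protein gene was at least 2-fold higher or lower than WT in any line. In CEPD1ox 0 of 43 were 2-fold higher, where 0.733% of the genes kept were, and 0 were lower, where 0.476% were. In CEPD2ox the background was 0.506% higher and 0.393% lower, and in CEPDL2ox it was 0.771% and 0.491%, with 0 of 43 ribosomal protein genes in each. With backgrounds this small, a count of 0 among 43 genes is near what the genes kept showed as a whole.

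Because rows of strong signal vary little between arrays, genes with a ratio of at least 0.32 in size were counted too, a smaller step called the small threshold below. In CEPD1ox 3 of 43 (6.98%) were higher and 1 (2.33%) was lower, beside 11.7% and 10.2% of the genes kept. In CEPD2ox 1 was higher and 1 lower, beside 10.5% and 10.2%. In CEPDL2ox 1 was higher and 1 lower, beside 10.9% and 11.3%. Those higher were AT1G58380, AT3G11250 and AT5G59240 in CEPD1ox, AT1G58380 in CEPD2ox and AT1G48830 in CEPDL2ox. Those lower were AT5G07090 in CEPD1ox, AT5G58420 in CEPD2ox and AT3G28500 in CEPDL2ox. In all, 7 of the 43 (16.3%) passed the small threshold in at least 1 line, beside 41.5% of the genes kept, most of which had weaker and more variable signals. Among the 14 with a mean signal of at least 9, the counts were 0 higher and 0 lower in CEPD1ox, beside 1.38% and 3.00% of the 867 genes kept in that range. They were 0 and 1 in CEPD2ox, beside 2.19% and 3.11%, and 1 and 0 in CEPDL2ox, beside 2.77% and 3.23%. Within this range of signal the shares of ribosomal protein genes lay near those of other genes.

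The median ratio of the 43 genes was -0.01 in CEPD1ox, 0.04 in CEPD2ox and 0.05 in CEPDL2ox. Over all genes kept the medians lay between -0.0014 and 0.0024. The quartiles of the ribosomal protein genes were -0.07 and 0.14 in CEPD1ox, -0.0034 and 0.15 in CEPD2ox, and -0.05 and 0.13 in CEPDL2ox. For all genes kept the quartiles were -0.14 and 0.16, -0.16 and 0.15, and -0.16 and 0.16. A ratio above 0 was found for 20 of 43 (46.5%) in CEPD1ox, 31 (72.1%) in CEPD2ox and 24 (55.8%) in CEPDL2ox. The shares over all genes kept were 50.4%, 49.3% and 50.02%. Over 77 other cytosolic ribosomal protein genes, described below, they were 54.5%, 58.4% and 64.9%. After shifting the arrays to 1 median the share of the 43 genes in CEPD1ox was 72.1%, beside 60.0% of all genes. The split in that line thus depends on the scaling. In CEPD2ox 21 of 29 large subunit genes and 10 of 14 small subunit genes had a ratio above 0. The ratios of the 43 genes were small. Their median size, whatever the sign, was 0.09, 0.07 and 0.10 in CEPD1ox, CEPD2ox and CEPDL2ox. Over all genes kept, most of which had weaker signals, it was 0.15, 0.15 and 0.16. At a mean signal of at least 9 the gap was smaller. There the median size was 0.08, 0.08 and 0.07 for 14 ribosomal protein genes, beside 0.09, 0.09 and 0.09 for 867 genes kept.

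**Figure D1:**
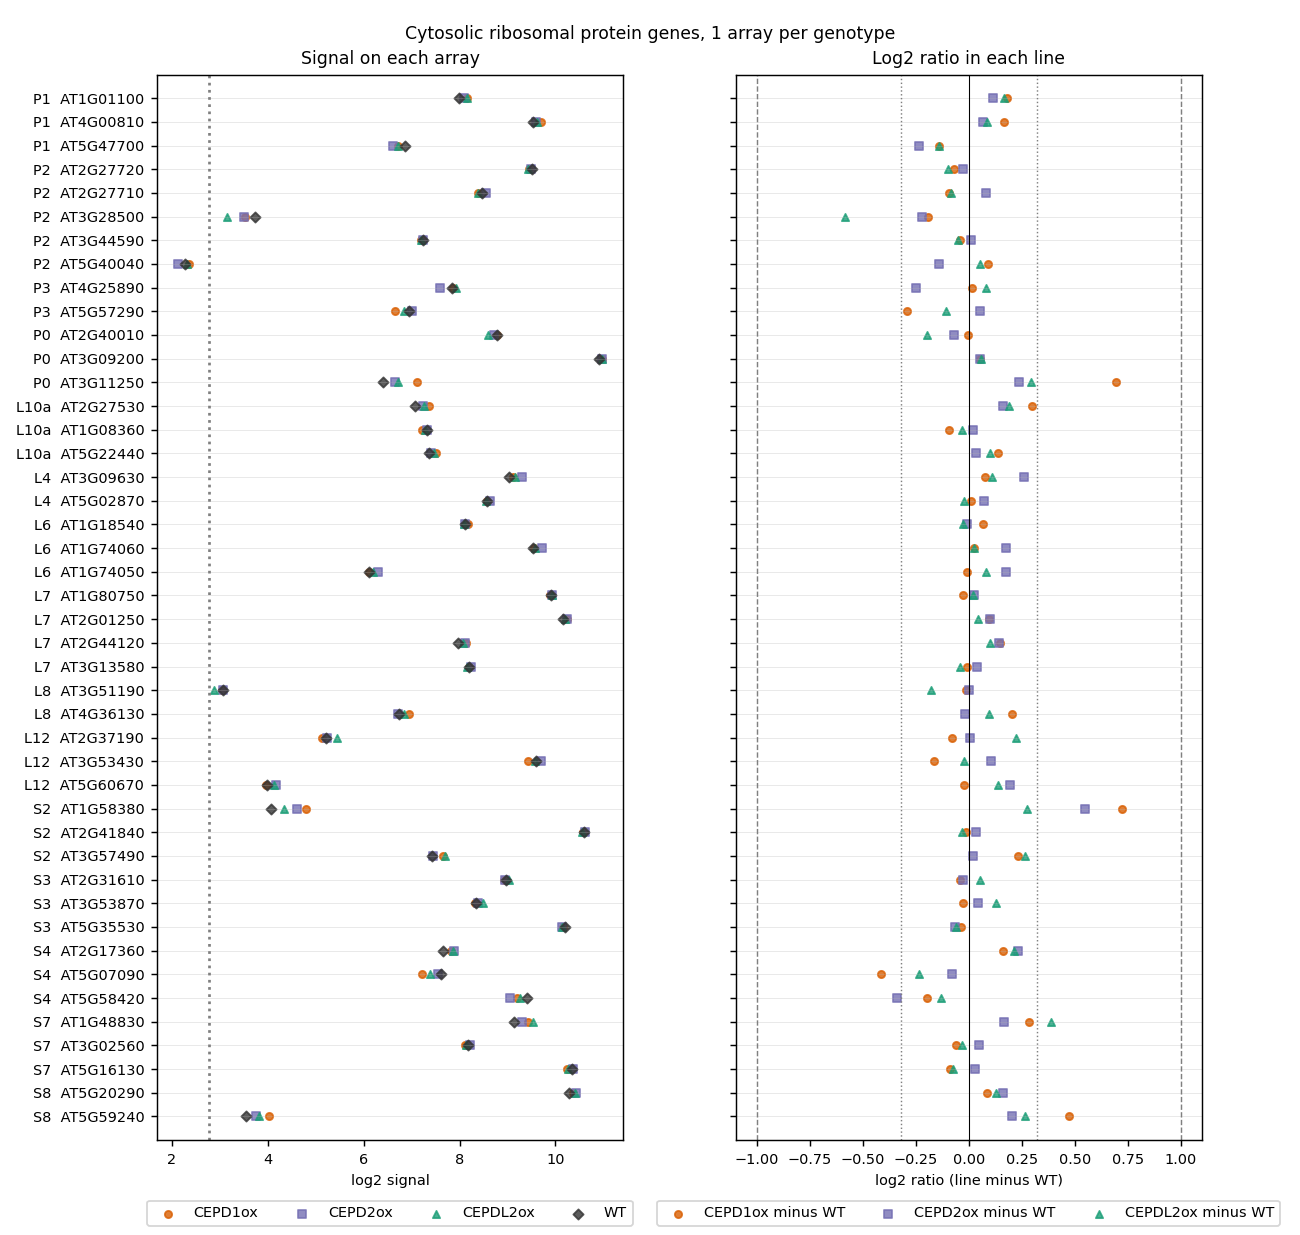
The left panel plots the log2 signal of each of the 44 loci on the CEPD1ox, CEPD2ox, CEPDL2ox and WT arrays, grouped by protein, and the dotted line is the filter value of 2.78. The right panel plots the log2 ratio of each line to WT, with dashed lines at 2-fold and dotted lines at ratios of 0.32 in size; no point reaches the dashed lines, and the points furthest from 0 belong to AT1G58380, AT3G11250 and AT3G28500.

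**Figure D2:**
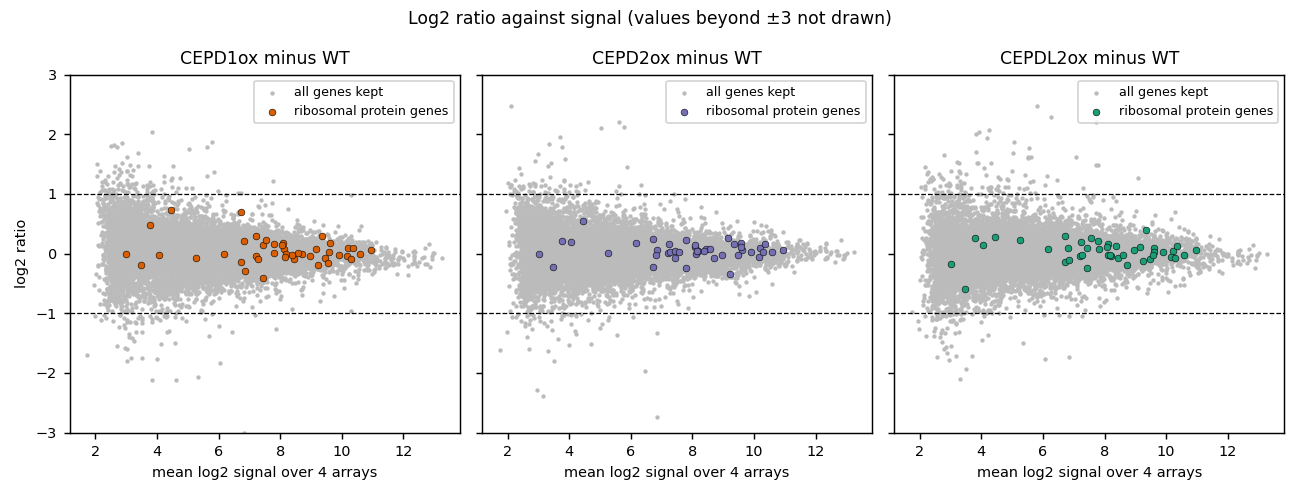
Each panel plots the log2 ratio of 1 line to WT against the mean log2 signal over the 4 arrays, in grey for the 13232 genes kept and in colour for the 43 ribosomal protein genes, with dashed lines at 2-fold. The scatter narrows toward strong signals, where most ribosomal protein genes lie; 1, 1 and 2 genes beyond 3 on the log2 scale are not drawn in CEPD1ox, CEPD2ox and CEPDL2ox.

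P0 is the base of the lateral stalk of the large subunit, onto which the acidic P1, P2 and P3 proteins assemble and which recruits translation factors. AT3G09200 had the strongest row of the 44, with signals of 10.97, 10.97 and 10.97 in CEPD1ox, CEPD2ox and CEPDL2ox, against 10.91 in WT. Its values were nearly the same on every array, with ratios of 0.05, 0.05 and 0.06. The paralog AT3G11250 had 7.11, 6.65 and 6.71 in CEPD1ox, CEPD2ox and CEPDL2ox, against 6.41 in WT. Its WT signal was the lowest of the 4, and the ratio was 0.70 (1.62-fold) in CEPD1ox, 0.24 in CEPD2ox and 0.29 in CEPDL2ox.

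The third P0 gene, AT2G40010, had 2 rows that disagree. The stronger row, used here, had 8.78, 8.71 and 8.59 in CEPD1ox, CEPD2ox and CEPDL2ox, against 8.79 in WT, with ratios of -0.01, -0.07 and -0.20. The weaker row had 4.09, 3.46 and 3.91 in the same lines, against 3.35 in WT, with ratios of 0.74, 0.11 and 0.56. The direction for AT2G40010 therefore depends on the row read in CEPD1ox, CEPD2ox and CEPDL2ox alike. Which of these rows follows the transcript was not tested.

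Of the P1 genes, AT1G01100 had 8.16, 8.10 and 8.15 in CEPD1ox, CEPD2ox and CEPDL2ox, against 7.98 in WT, ratios of 0.18, 0.11 and 0.17. AT4G00810 had 9.70, 9.59 and 9.61, against 9.53 in WT, ratios of 0.17, 0.07 and 0.09. AT5G47700 lay on the other side of WT, with 6.72, 6.62 and 6.71 in the lines, against 6.85 in WT, and ratios of -0.14, -0.23 and -0.14. P1 genes thus lay on both sides of WT, each by less than 0.32.

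Of the P2 genes, AT2G27720 and AT3G44590 stayed within 0.10 of WT in every line, and AT2G27710 lay between -0.09 and 0.08. AT3G28500 had 3.53, 3.51 and 3.14 in CEPD1ox, CEPD2ox and CEPDL2ox, against 3.73 in WT. Its ratio of -0.59 in CEPDL2ox was the lowest of the 43 genes in any line, and the ratios were -0.19 in CEPD1ox and -0.22 in CEPD2ox. These signals are within about 1 log2 unit of the filter value, where all rows vary more.

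P3 is a stalk protein found in plants. AT4G25890 had 7.86, 7.59 and 7.92 in CEPD1ox, CEPD2ox and CEPDL2ox, against 7.84 in WT, so that the CEPD2ox array alone stood below the others, at a ratio of -0.25. AT5G57290 had 6.65, 7.00 and 6.84, against 6.94 in WT, and here CEPD1ox was lowest, at -0.29. The P3 paralogs therefore had their lowest signal on different arrays. Over the 12 stalk protein genes kept, the median ratio was -0.02 in CEPD1ox, 0.03 in CEPD2ox and -0.07 in CEPDL2ox, and over the other 31 genes it was -0.01, 0.04 and 0.05.

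L10a forms the L1 stalk, next to the site where spent tRNA leaves. PGY1 (AT2G27530), whose mutants were found as enhancers of the leaf polarity mutant asymmetric leaves1, had 7.37, 7.23 and 7.26 in CEPD1ox, CEPD2ox and CEPDL2ox, against 7.07 in WT. All lines lay above WT, with ratios of 0.30, 0.16 and 0.19. The paralogs AT5G22440 (0.14, 0.04 and 0.10) and AT1G08360 (-0.10, 0.02 and -0.03) were closer to WT.

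L4 extends into the wall of the tunnel through which the new peptide leaves. AT3G09630, an L4 gene, had 9.12, 9.30 and 9.15 in CEPD1ox, CEPD2ox and CEPDL2ox, against 9.04 in WT. CEPD2ox was highest, at a ratio of 0.26, beside 0.08 in CEPD1ox and 0.11 in CEPDL2ox. The other L4 gene, AT5G02870, lay between -0.02 and 0.07 of WT.

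The L6 genes AT1G74060 and AT1G74050 were also highest in CEPD2ox, at 9.71 and 6.29, against 9.54 and 6.11 in WT, ratios of 0.17 and 0.18. In CEPD1ox and CEPDL2ox they lay between -0.01 and 0.08 of WT, and the third L6 gene, AT1G18540, lay between -0.03 and 0.07 in all 3 lines. The L7 genes stayed close to WT. AT1G80750 had 9.88, 9.93 and 9.93 in CEPD1ox, CEPD2ox and CEPDL2ox, against 9.91 in WT. Its SD over the 4 arrays, 0.024, was the smallest of the 43 genes. AT2G44120 had the largest L7 ratios, of 0.15, 0.14 and 0.10, while AT2G01250 and AT3G13580 lay between -0.04 and 0.10.

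L8 lies next to the centre that forms the peptide bond. Of its genes, AT4G36130 had ratios of 0.21 in CEPD1ox, -0.02 in CEPD2ox and 0.10 in CEPDL2ox from a WT signal of 6.74. AT3G51190 was weak, with 3.05, 3.06 and 2.88 in CEPD1ox, CEPD2ox and CEPDL2ox, against 3.06 in WT. L12 sits at the base of the stalk. AT3G53430 had 9.42, 9.69 and 9.56 in CEPD1ox, CEPD2ox and CEPDL2ox, against 9.58 in WT, so CEPD1ox was lowest and CEPD2ox highest. AT2G37190 was highest in CEPDL2ox, at 5.44, against 5.22 in WT. AT5G60670 had a WT signal of 3.99 and ratios of -0.02, 0.19 and 0.14.

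In the small subunit, S2 and S3 are core proteins at the channel through which the mRNA enters. The row named for XW6 (AT1G58380), an S2 gene, had 4.80, 4.62 and 4.34 in CEPD1ox, CEPD2ox and CEPDL2ox, against 4.07 in WT. WT was lowest, and the ratios of 0.72 (1.65-fold), 0.55 (1.46-fold) and 0.27 include the largest of the 43 genes. The annotation gives another 3 rows to XW6 together with AT1G58684, AT1G58983 and AT1G59359. These 3 rows held the same values, 10.83, 10.94 and 10.96 in CEPD1ox, CEPD2ox and CEPDL2ox, against 10.86 in WT, with ratios of -0.03, 0.08 and 0.10. The ratios of the row named for XW6 alone are thus not seen in the rows it shares, and which rows follow its transcript was not tested. The S2 gene AT2G41840 had 10.57, 10.62 and 10.56, against 10.59 in WT, one of the smallest spreads, with an SD of 0.028 over the 4 arrays. AT3G57490 had ratios of 0.23, 0.02 and 0.27.

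The S3 genes AT2G31610, AT3G53870 and AT5G35530 had ratios between -0.06 and 0.13 in all lines, from WT signals of 8.97, 8.35 and 10.20. No S3 gene stood out on any array.

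S4 is a small subunit protein whose genes lay on both sides of WT. AT2G17360 had 7.81, 7.89 and 7.86 in CEPD1ox, CEPD2ox and CEPDL2ox, against 7.65 in WT, ratios of 0.16, 0.23 and 0.21. AT5G07090 had 7.21, 7.54 and 7.38, against 7.62 in WT. CEPD1ox was lowest, and the ratios were -0.41, -0.08 and -0.24. AT5G58420 had 9.20, 9.06 and 9.27, against 9.40 in WT. Its lowest signal was on CEPD2ox, and the ratios were -0.20, -0.34 and -0.13.

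Of the S7 genes, AT1G48830 had 9.43, 9.31 and 9.53 in CEPD1ox, CEPD2ox and CEPDL2ox, against 9.14 in WT. WT was lowest and CEPDL2ox highest, with ratios of 0.29, 0.17 and 0.39. Among the 14 ribosomal protein genes with a mean signal of at least 9, the 0.39 (1.31-fold) in CEPDL2ox was the largest ratio in any line. AT3G02560 and AT5G16130 lay between -0.09 and 0.05 of WT in every line. Of the S8 genes, AT5G20290 had ratios of 0.09, 0.16 and 0.13 from a WT signal of 10.27. AT5G59240 was weak, with 4.02, 3.75 and 3.81 in CEPD1ox, CEPD2ox and CEPDL2ox, against 3.55 in WT. WT was lowest for this row too, and the ratios were 0.47 (1.39-fold), 0.20 and 0.27.

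Paralogs of 1 protein were then compared by the difference between their ratios, in which a constant offset of each row cancels. Other differences between rows do not cancel, as the unequal ratios of the rows of AT2G40010 and of XW6 show, and some pairs set a weak row against a strong one. There were 43 pairs among the 15 proteins, each ordered so that the mean difference over the 3 lines is above 0. The median of the mean difference was 0.13, 8 pairs reached 0.32 and 0 reached 2-fold. Of the 34 pairs with both mean signals at 5 or above, 6 reached 0.32. Differences that change sign between lines cancel in this mean. The P3 pair AT4G25890 and AT5G57290 had 0.31, -0.30 and 0.19, with a mean of 0.06. Within single lines, 10, 4 and 8 pairs were at least 0.32 apart, whatever the sign, in CEPD1ox, CEPD2ox and CEPDL2ox. No count over pairs of other genes is given here, so these counts stand without a background. The 8 pairs with a mean difference of at least 0.32 are not independent, since AT1G58380, AT3G11250 and AT2G17360 each recur among them. AT1G58380 and AT2G41840 (S2) were furthest apart, by 0.74 in CEPD1ox, 0.52 in CEPD2ox and 0.30 in CEPDL2ox. This pair rests on the row named for XW6 alone. AT3G11250 and AT2G40010 (P0) followed, with 0.70, 0.31 and 0.49, a pair that rests on the stronger of both rows of AT2G40010. AT3G11250 differed from the P0 gene AT3G09200 by 0.64, 0.19 and 0.24. Without the array labelled CEPD1ox the mean of this last pair was 0.21, against 0.36 ± 0.25 with it (SD, n = 3 lines).

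AT2G17360 and AT5G07090 (S4) differed by 0.57, 0.31 and 0.45, and AT2G17360 and AT5G58420 (S4) by 0.36, 0.57 and 0.34. Their mean differences were 0.44 ± 0.13 and 0.42 ± 0.13, and without the array labelled CEPD1ox they were 0.38 and 0.46. These S4 pairs had signals above 7 on every array, so they are further from background than the S2 pairs. AT1G58380 and AT3G57490 (S2) differed by 0.49 in CEPD1ox and 0.53 in CEPD2ox, and by 0.01 in CEPDL2ox. The smallest spread among the 8 pairs was that of AT1G01100 and AT5G47700 (P1), with 0.32, 0.35 and 0.31. The last of the 8 was AT1G48830 and AT5G16130 (S7), with 0.37, 0.13 and 0.46, the only pair of the 8 with both mean signals at 9 or above. The SD of a pair covers the lines only, since WT has 1 array, and probes shared between paralogs were not examined.

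**Figure D3:**
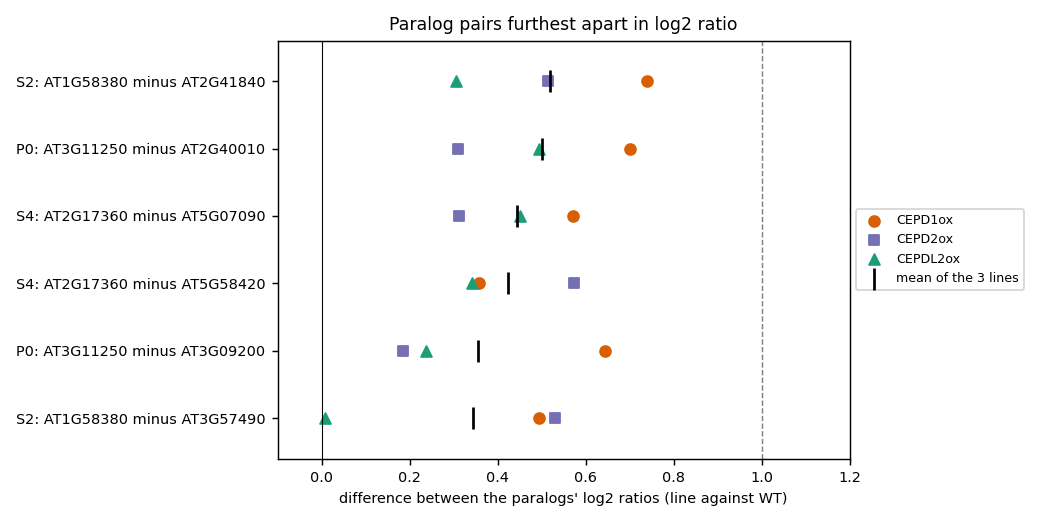
The difference between the log2 ratios of 2 paralogs, first named minus second named, is plotted for the 6 pairs of largest mean difference. There is a symbol per line and a bar for the mean of the 3 lines, and the dashed line marks a 2-fold difference. The points lie between 0.01 and 0.74, and none reaches 2-fold.

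Paralogs that are neighbours in the genome differed little in their ratios, as did some pairs that are not neighbours. AT2G27710 and AT2G27720 (P2), on chromosome 2 with 0 genes listed between them, differed by -0.02 in CEPD1ox, 0.11 in CEPD2ox and 0.02 in CEPDL2ox. AT1G74050 and AT1G74060 (L6), neighbours on chromosome 1, differed by -0.03, 0.0028 and 0.05. Both pairs lie under the median of the mean difference over the 43 pairs, with means of 0.03 and 0.01. AT3G44590 and AT2G27710 (P2), which are not neighbours, had the smallest mean difference of the 43, 0.005. No test was made of neighbours against other pairs.

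The lines were also set against each other at the small threshold. CEPD2ox minus CEPD1ox gave 2 of 43 higher and 1 lower, beside 11.0% and 11.6% of the genes kept. CEPDL2ox minus CEPD1ox gave 0 higher and 3 lower, beside 9.92% and 11.4%, and CEPDL2ox minus CEPD2ox gave 1 and 1, beside 11.7% and 12.2%. None reached 2-fold. The genes kept did so in 0.574% (higher) and 0.680% (lower) of cases for CEPD2ox minus CEPD1ox. The shares were 0.438% and 0.854% for CEPDL2ox minus CEPD1ox, and 0.650% and 0.673% for CEPDL2ox minus CEPD2ox. As each array enters several of these comparisons, the counts are not independent.

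The spread over the 4 arrays followed the signal. For the 5 ribosomal protein genes kept with a mean signal below 5, the median SD was 0.19, beside 0.23 for 4964 genes in that range. It was 0.12, beside 0.14, for the 6 between 5 and 7, and 0.07, beside 0.09, for the 18 between 7 and 9. For the 14 at 9 or above it was 0.06, beside 0.08 for 867 genes. The largest SDs belonged to AT1G58380 (0.32), AT3G11250 (0.29) and AT3G28500 (0.24), all with mean signals below 7. The smallest belonged to AT1G80750 (0.024), AT3G09200 (0.027) and AT2G41840 (0.028), all with mean signals above 9.

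Other genes of translation were described in the same way. Of 141 further cytosolic ribosomal protein loci, 79 had a row and 77 were kept. Of these 0 passed 2-fold, and 1, 0 and 4 were higher by the small threshold and 3, 1 and 1 lower in CEPD1ox, CEPD2ox and CEPDL2ox. The shares over all genes kept were 11.7%, 10.5% and 10.9% higher and 10.2%, 10.2% and 11.3% lower, and those of genes with a mean signal of at least 9 were 1.38% to 3.23%. The median of the mean signal of the loci with a row was 8.51. Their median ratios were 0.02, 0.04 and 0.03. AT4G30800, an S11 gene, had the largest mean ratio in size, with 5.29, 4.98 and 5.13 in CEPD1ox, CEPD2ox and CEPDL2ox, against 4.77 in WT. AT3G48960, an L13 gene, had 3.83, 3.999 and 3.92, against 4.25 in WT, and AT2G20450, an L14 gene, had 9.47, 9.32 and 9.55, against 9.17 in WT.

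Of 30 ribosome biogenesis factors 12 had a row and were kept, and 1, 0 and 1 were higher by the small threshold and 0 lower in CEPD1ox, CEPD2ox and CEPDL2ox. With 12 genes, counts of 0 or 1 are near the shares over all genes kept, which lay between 10.2% and 11.7%. AT3G15460, a gene of the BRIX family of large subunit assembly factors, had 5.90, 5.47 and 6.04 in CEPD1ox, CEPD2ox and CEPDL2ox, against 5.48 in WT, so that CEPD1ox and CEPDL2ox were higher and CEPD2ox lay near WT. The median ratios of the 12 were 0.07, 0.02 and 0.09. Of the 5 elongation factor genes and 3 initiation factor genes with a row, 0 passed the small threshold in any line. The largest ratios there were 0.27 for AT2G40290, an eIF2 alpha gene, and 0.24 for AT5G12110, an eEF1B gene, both in CEPD1ox. RAPTOR1, a subunit of the TOR complex and the only one of 11 TOR pathway and regulator genes with a row, had 9.31, 9.14 and 9.01 in CEPD1ox, CEPD2ox and CEPDL2ox, against 9.26 in WT, with its lowest signal in CEPDL2ox.

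**Figure D4:**
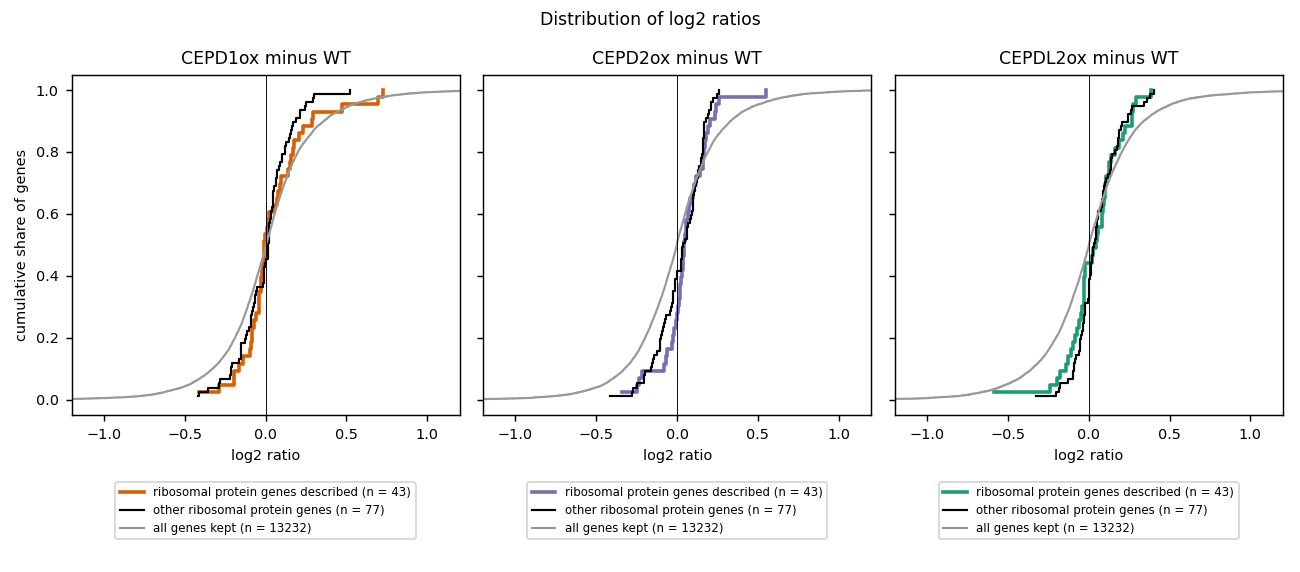
Each panel gives the cumulative share of genes at or below a log2 ratio of 1 line to WT, in colour for the 43 ribosomal protein genes described, in black for 77 other cytosolic ribosomal protein genes and in grey for the 13232 genes kept; ratios beyond 1.2 in either direction are not drawn. The curves cross the middle near a ratio of 0. Those of both ribosomal protein sets are steeper there than the grey one, most of whose genes had weaker signals. The upper end of the described set in CEPD1ox meets the grey curve.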

How the data were processed

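Root RNA (100 ng per array) was measured on 4 arrays, 1 per genotype. The authors deposited log2 signals per row. The submitters' processing notes name Affymetrix Expression Console 1.3. How rows were summarized and normalized, and the genome build, is not given in the sources used here. Coordinates were therefore left out, and the log2 base was inferred from the range of 0.431 to 13.8. Arrays have no read depth; their number limits the precision.

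Values were used as deposited. Of 38408 rows 16722 were annotated with 1 gene, and names were updated through TAIR10.1. For the 148 genes with several rows, the row of highest mean signal was used. Genes whose highest signal lay below 2.78, the 25th percentile, were left out. A gene was counted as higher or lower past 2-fold or, in a smaller step, past a log2 ratio of 0.32 in size. The counting was tested on simulated data. Alternatives were other normalizations, filters, row summaries and a threshold of 1.5-fold. The members and lists were chosen with earlier results of these data known. Every member could be named; from other lists, up to 3 genes with the largest mean ratio in size. Planned promoter motifs and protein identities were not analysed here. R 4.3.3, limma 3.58.1 and Python 3.11.15 were used.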

Additional observations from a re-analysis of the deposited data

How the results depend on the processing

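No paired analysis was possible because each genotype has 1 array. Over all alternatives run, the median ratio of the ribosomal protein genes lay between -0.01 and 0.04 in CEPD1ox. It lay between 0.04 and 0.07 in CEPD2ox, and between 0.00 and 0.05 in CEPDL2ox. In CEPD1ox the median was -0.0088 as deposited and above 0 after a median shift (0.04) and after quantile normalization (0.0056). Its sign is not settled. The mean over the genes in CEPD1ox was 0.05. In CEPDL2ox the median was 0.00 after quantile normalization. In CEPD2ox it stayed above 0. Shifting the arrays to 1 median moved the median of all genes in CEPD1ox to 0.05; no other scaling moved it further. No ribosomal protein gene passed 2-fold under another normalization, filter or row summary. At a threshold of 1.5-fold, 2 of 43 genes were higher in CEPD1ox, beside 520 of the 13232 genes kept. In CEPDL2ox 1 of 43 was lower at 1.5-fold, beside 443 of the 13232. The counts at the small threshold (0.32) are small, and 1 or 2 genes move them. With a median shift 5 genes were higher in CEPD1ox and 0 lower in CEPD2ox. With the filter at the median 1 was higher in CEPD1ox, 0 were higher in CEPD2ox and 0 lower in CEPDL2ox. That filter leaves out weak rows and keeps 38 of the genes. Shares over all genes under the shift and under this filter are not given here. With the mean over rows, the difference between AT3G11250 and AT2G40010 was 0.33 in CEPD1ox, 0.22 in CEPD2ox and 0.11 in CEPDL2ox. None of the paralog differences named in the plot changed sign, but these pairs were picked as the furthest apart. A median shift cannot change such a difference, and the mean over rows can change only the pair with AT2G40010. For the other pairs only the quantile and cyclic loess normalizations could move it. No sign or size here was checked by a second array.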
